A study of Homo sapiens with 6 samples.

Results

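The expression of 55 genes for protein translocation into the endoplasmic reticulum (ER), N-glycosylation and ER-Golgi vesicle transport was examined in 22Rv1 cells, a human prostate cancer line. The members are a list of gene symbols grouped by function, and no threshold on a measured value defined it. Earlier results of these data were known when the list was chosen. All 55 were found among the 29804 symbols of the count table, and all 55 were among the 14672 genes that passed the expression filter. WT cells were harvested untreated at week 0, AM cells were cultured untreated for 6 weeks, and 6WP cells received 1 µg/ml phleomycin, a drug that breaks DNA, for 1 hour a day on week days over 6 weeks. Each group had 2 libraries that the labels call biological replicates, and the label of 6WP replicate 1 gives the dose without the volume. All groups derive from 1 cell line, and the 6WP cells are those that survived repeated treatment, so surviving and responding cells cannot be told apart. In such bulk samples, fewer cells expressing a gene and less RNA per cell cannot be told apart either.

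Secretory and membrane proteins enter the ER while they are being made. The signal recognition particle brings the ribosome to the SEC61 channel, the signal peptidase removes the leader peptide, and the oligosaccharyltransferase moves a preassembled sugar tree from a dolichol lipid onto asparagine residues. COPII-coated vesicles then carry cargo to the Golgi, COPI-coated vesicles return escaped ER residents, and transmembrane receptors select what is loaded. Many of these genes are known targets of the unfolded protein response factors XBP1 and ATF6.

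Levels are given as TMM-normalized CPM (read counts scaled to the library total times its TMM factor). Differences are given as log2 fold changes with their standard error (SE) from a quasi-likelihood model in edgeR fitted to all 6 libraries and all tested genes. A gene was called at a Benjamini-Hochberg adjusted p below 0.05 over all tested genes. Library totals ranged from 21222201 to 35311945 counts, and 3 counts, taken as the floor of detection, equalled at most 0.138 CPM (counting error only). The 6WP replicates were the least alike. Their chi-square per degree of freedom over all genes was 67.2, against 5.83 in WT and 9.36 in AM cells. Among the members the median SD of log2 CPM was 0.115 in 6WP, 0.058 in WT and 0.054 in AM cells. Luminal epithelial markers were detected, among them KRT18 at 319 and 317 CPM in WT, 311 and 353 CPM in AM and 317 and 334 CPM in 6WP cells. The 3 basal and 3 endothelial markers summed to at most 0.179 CPM in every library, the 4 leukocyte markers to at most 1.12 CPM and the 4 fibroblast markers to at most 4.23 CPM. The luminal keratin gene KRT8 was lower in AM than in WT cells (log2 fold change -0.78, SE 0.15, adjusted p = 0.0132). The part of this difference in those of the members was not tested.

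The members formed a plateau in AM cells between 2 lower groups. Summed over the 55 genes, expression was 12761 and 12173 CPM in WT cells, 16318 and 16294 CPM in AM cells and 11591 and 11303 CPM in 6WP cells. The AM libraries thus lay above all others, and the 6WP libraries lay below WT. In 6WP against AM cells, 35 of the 55 members (63.6%) were lower and 0 were higher. Over all tested genes, 21.3% were called in this comparison, 9.68% as lower and 11.7% as higher. The members' median log2 fold change was -0.51, against 0.05 over all genes. Against WT, 23 members (41.8%) were higher in AM cells and 0 were lower, where the background was 17.7% called, 7.74% higher and 9.93% lower. Here the median was 0.34, against -0.00 over all genes. Both comparisons use the same AM libraries and are therefore not independent.

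In 6WP against WT cells, edgeR called 0 of the 55 members, with a background of 3.00% (1.63% higher and 1.37% lower). Their median log2 fold change was -0.16, against 0.01 over all genes. At an unadjusted p under 0.05 there were 14 members, while 22.4% of all tested genes passed this limit, and the Wald test of DESeq2 called 2, SEC24C and SEC24D, both lower, where it called 8.48% of all genes it tested. The 55 estimates ran from -1.01 (SEC24D) to 0.37 (COPE), with 39 below 0 and 16 above. In 30 of the 55 members both 6WP libraries lay below both WT libraries, and in 8 both lay above. Of all tested genes, 25.2% lay below and 25.5% above in this way. In simulated data of this size the same test recovered 9% of 1.5-fold and 68% of 2-fold changes in 6WP against WT, over 14479 genes. The changed genes were drawn at random from all genes, and each gene had the same spread in every group, unlike the real libraries. The median SD of log2 CPM in the real 6WP libraries was 0.199 over all genes and 0.115 among the members. How often such changes are recovered among the members was not tested. Without 6WP replicate 1 the count was 20 (18 lower), and without 6WP replicate 2 it was 16 (13 lower), where 25.2% and 26.0% of all tested genes were called, in fits where the remaining 6WP library is assumed to vary like the other groups.

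**Figure D1:**
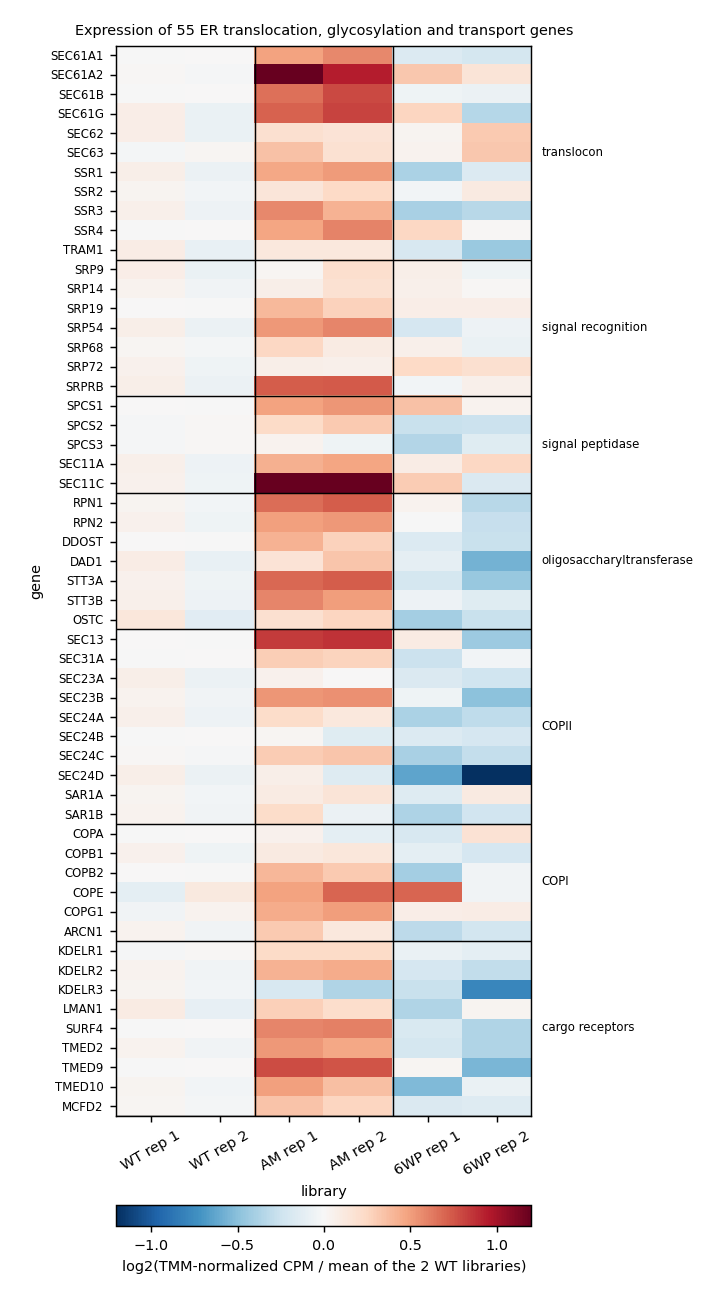
Colour gives log2 of the CPM over the mean of the 2 WT libraries (rows are the 55 genes by role, columns the 6 libraries; red is higher, blue lower, and the scale is capped at its ends). The AM columns are red in most rows, with SEC11C and SEC61A2 strongest, and the 6WP columns are mostly pale or blue, with SEC24D in 6WP replicate 2 the darkest and COPE in 6WP replicate 1 red.

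The calls depended on single libraries, and no member was called in every fit that left out 1 library. The 35 lower calls in 6WP against AM fell to 2 without AM replicate 1 and to 0 without AM replicate 2, where 34 and 33 members still had an unadjusted p under 0.05 and the background fell to 1.18% and 0.775%. Without WT replicate 1 or 2 they numbered 20 and 22, since the WT libraries inform the shared spread, and a fit to the AM and 6WP libraries alone gave 21, with backgrounds of 8.51%, 8.80% and 9.07%. Without 6WP replicate 1 or 2 they numbered 41 each time, with backgrounds of 45.8% and 33.4%. The 23 higher calls in AM against WT fell to 0 without WT replicate 1, WT replicate 2 or AM replicate 2 and to 1 without AM replicate 1, but rose to 36 and 37 without 6WP replicate 1 and 2 and to 37 in a fit to those 2 groups alone. The background of this comparison lay between 0.448% and 0.902% in the first 4 of these fits and was 43.9%, 44.7% and 46.5% in the last 3. The median stayed between -0.55 and -0.47 in 6WP against AM and between 0.31 and 0.38 in AM against WT over these leave-outs. In 47 of the 55 members both 6WP libraries lay below both AM libraries, an ordering found in 28.5% of all tested genes, and in 47 members both AM libraries lay above both WT libraries, against 36.9% of all tested genes.

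**Figure D2:**
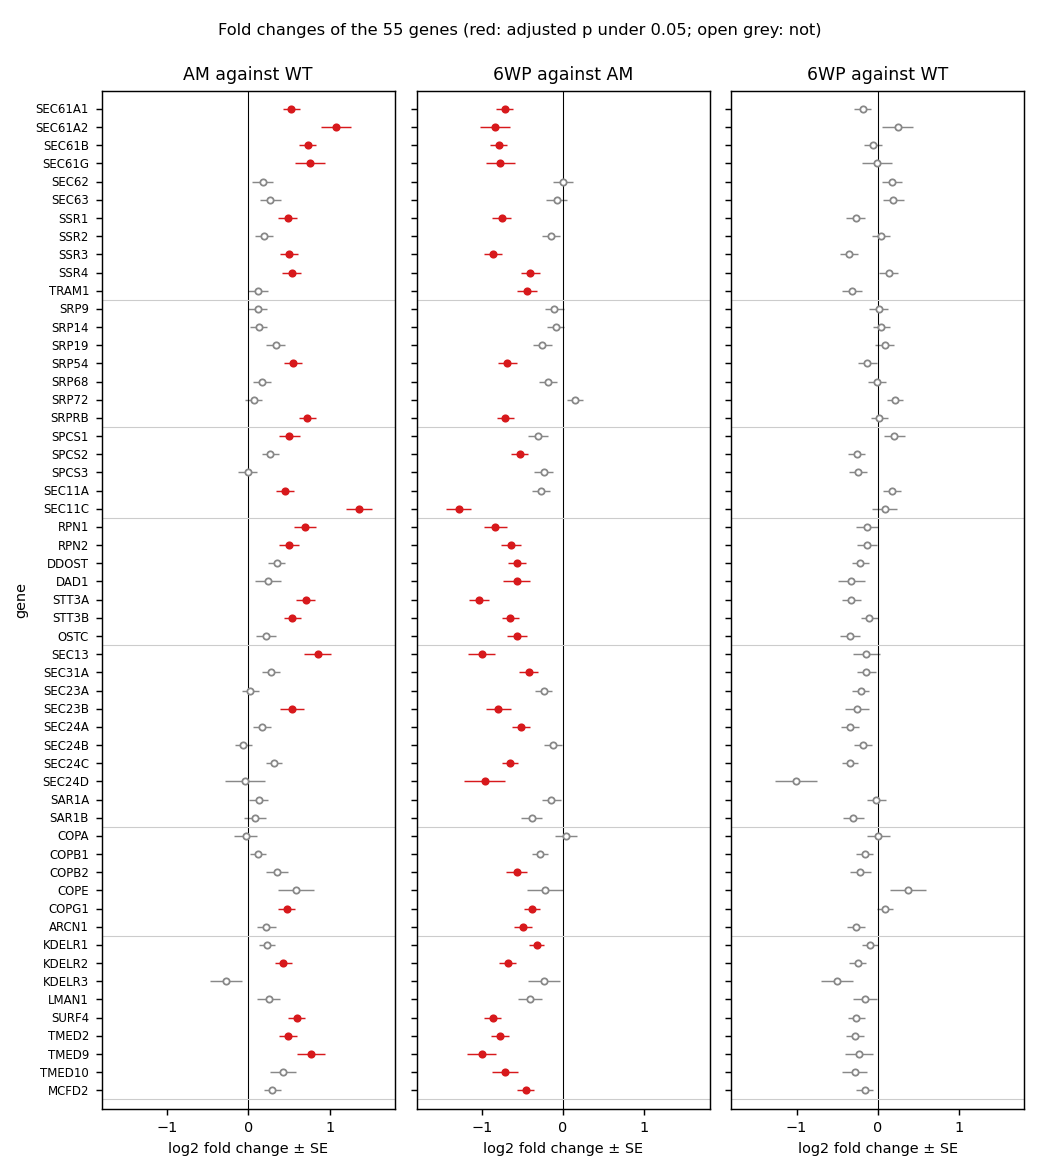
Points give the log2 fold change of each of the 55 genes and bars its SE in AM against WT (left), 6WP against AM (middle) and 6WP against WT (right); red is an adjusted p below 0.05. Called genes lie right of 0 on the left (23) and left of 0 in the middle (35), and none is red on the right.

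Of the 11 translocon genes, 8 (72.7%) were lower in 6WP than in AM cells and 7 (63.6%) were higher in AM than in WT cells. Over all tested genes, 21.3% and 17.7% were called in these comparisons in either direction. The SEC61 channel changed in all of its subunits. SEC61A1 (chr3:128051641-128071705, plus strand, GRCh38), the main pore subunit, was measured at 509 and 515 CPM in WT, 717 and 761 CPM in AM and 457 and 442 CPM in 6WP cells. Both AM libraries were above the rest, 1.44 times the WT level (log2 fold change 0.53, SE 0.10, adjusted p = 0.0139) and 1.64 times the 6WP level (log2 fold change -0.72, SE 0.10, adjusted p = 0.00541). For SEC61B, a small subunit of the channel, the values were 65.7 and 65.9 CPM in WT, 104 and 114 CPM in AM and 63.5 and 62.6 CPM in 6WP cells. The WT and 6WP libraries differed little from one another, and the AM level was 1.73 times that in 6WP cells (log2 fold change -0.79, SE 0.11, adjusted p = 0.00444). SEC61G, the gamma subunit, was spread more widely in 6WP cells, with 90.2 and 81.1 CPM in WT, 139.6 and 149.9 CPM in AM and 102 and 67.7 CPM in 6WP cells (log2 fold change -0.77, SE 0.18, adjusted p = 0.0236). The second pore gene, SEC61A2, had the lowest level per kilobase of the 55 in WT cells, 2.03 ± 0.0360 RPKM (SD, n = 2; CPM divided by the length of the canonical transcript in kilobases), against 144 ± 1.09 RPKM for SEC61A1. It was 2.11 times higher in AM than in WT cells (log2 fold change 1.08, SE 0.19, adjusted p = 0.0105), at 5.13 and 5.01 CPM in WT, 11.8 and 9.75 CPM in AM and 6.36 and 5.64 CPM in 6WP cells.

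The translocon-associated proteins SSR1, SSR2, SSR3 and SSR4 form the TRAP complex beside the channel. SSR3 was measured at 224 and 205 CPM in WT, 319.9 and 286 CPM in AM and 164 and 170.1 CPM in 6WP cells, which put both 6WP libraries below every other one (log2 fold change -0.86, SE 0.11, adjusted p = 0.00383 in 6WP against AM). SSR1 showed the same order of groups (log2 fold changes 0.48 in AM against WT and -0.75 in 6WP against AM), and SSR4 was also called in both comparisons (log2 fold changes 0.54 and -0.40). SSR2 was not called in any comparison, with values of 706 and 671 CPM in WT, 760.0 and 811 CPM in AM and 674 and 743 CPM in 6WP cells. TRAM1, a membrane protein that assists translocation, was called in 6WP against AM (log2 fold change -0.44, SE 0.12, adjusted p = 0.0386) and not in AM against WT (log2 fold change 0.12, SE 0.12, adjusted p = 0.504). SEC62 and SEC63, which serve posttranslational import, were called in no comparison, and their log2 fold changes in 6WP against AM were -0.00 and -0.08 (adjusted p = 0.988 and 0.682, edgeR). Whether channel subunits and SEC62 or SEC63 differ in response was not tested.

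Of the 7 signal recognition genes, 2 (28.6%) were called as lower in 6WP against AM, and the same 2 as higher in AM against WT. Over all tested genes, 9.68% were called as lower in the first comparison and 7.74% as higher in the second (21.3% and 17.7% in either direction). Whether 2 of 7 differs from these shares was not tested. SRPRB, the membrane-anchored beta subunit of the receptor for the particle, was measured at 168 and 152 CPM in WT, 264 and 266 CPM in AM and 157 and 167 CPM in 6WP cells. The AM libraries stood alone, and WT and 6WP overlapped (log2 fold change 0.73, SE 0.11, adjusted p = 0.00664 in AM against WT; log2 fold change -0.71, SE 0.10, adjusted p = 0.00570 in 6WP against AM). SRP54, the GTPase that binds the signal sequence, followed with 63.6 and 57.7 CPM in WT, 86.7 and 91.3 CPM in AM and 52.6 and 58.2 CPM in 6WP cells (log2 fold change -0.68, SE 0.11, adjusted p = 0.00805 in 6WP against AM). SRPRA, the other receptor subunit, was not among the 55 and is listed in the table under its older symbol SRPR. It was also lower in 6WP than in AM cells (log2 fold change -0.62, SE 0.10, adjusted p = 0.00818). The other particle proteins, SRP9, SRP14, SRP19, SRP68 and SRP72, were called in no comparison, and their log2 fold changes in 6WP against AM ran from -0.25 (SRP19) to 0.15 (SRP72, the highest of the 55).

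The signal peptidase held the member with the largest estimate in both comparisons. SEC11C (chr18:59139866-59158832, plus strand, GRCh38), one of 2 catalytic subunits, was measured at 92.4 and 85.5 CPM in WT, 229.5 and 229 CPM in AM and 109.8 and 78.6 CPM in 6WP cells. The AM libraries were 2.58 times WT (log2 fold change 1.37, SE 0.16, adjusted p = 0.00354) and 2.44 times 6WP (log2 fold change -1.28, SE 0.16, adjusted p = 0.00355), and the WT values fell between those of the 6WP libraries. Its paralog SEC11A had smaller estimates, with 305 and 281 CPM in WT, 393 and 406 CPM in AM and 312 and 349 CPM in 6WP cells (log2 fold change 0.45, SE 0.11, adjusted p = 0.0299 in AM against WT; log2 fold change -0.27, SE 0.11, adjusted p = 0.109 in 6WP against AM). Among the accessory subunits, SPCS1 was called as higher in AM than in WT cells (log2 fold change 0.51), SPCS2 as lower in 6WP than in AM cells (log2 fold change -0.53), and SPCS3 in no comparison (log2 fold changes -0.01 and -0.24).

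All 7 oligosaccharyltransferase genes were lower in 6WP than in AM cells, and 4 (57.1%) were higher in AM than in WT cells. The background was 21.3% and 17.7% of all tested genes called. STT3A (chr11:125591712-125625215, plus strand, GRCh38), the catalytic subunit that glycosylates proteins during translocation, was measured at 313 and 292 CPM in WT, 487 and 499 CPM in AM and 261 and 221 CPM in 6WP cells. Its AM level was 2.05 times the 6WP level (log2 fold change -1.03, SE 0.12, adjusted p = 0.00284), and both 6WP libraries were also below both WT libraries (log2 fold change -0.33, SE 0.12, adjusted p = 0.158). Annotated exons of the neighbouring CHEK1 overlap STT3A on the same strand in GENCODE, and how shared reads were counted is not given in the sources used here. STT3B, the catalytic subunit that acts after translocation, was measured at 442 and 407 CPM in WT, 636 and 599.7 CPM in AM and 406 and 382 CPM in 6WP cells (log2 fold change -0.65, SE 0.11, adjusted p = 0.00761 in 6WP against AM). RPN1 and RPN2 encode ribophorins, which hold the complex at the ribosome and substrate. RPN1 stood at 609 and 578 CPM in WT, 946 and 979.7 CPM in AM and 611 and 472 CPM in 6WP cells. The 6WP libraries lay on either side of WT, and both were below AM (log2 fold change -0.83, SE 0.14, adjusted p = 0.00807). For RPN2 the log2 fold changes were 0.51 in AM against WT and -0.64 in 6WP against AM. DDOST, DAD1 and OSTC, 3 noncatalytic subunits, were called in 6WP against AM (log2 fold changes -0.57, -0.57 and -0.57) and not in AM against WT (log2 fold changes 0.35, 0.25 and 0.22).

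**Figure D3:**
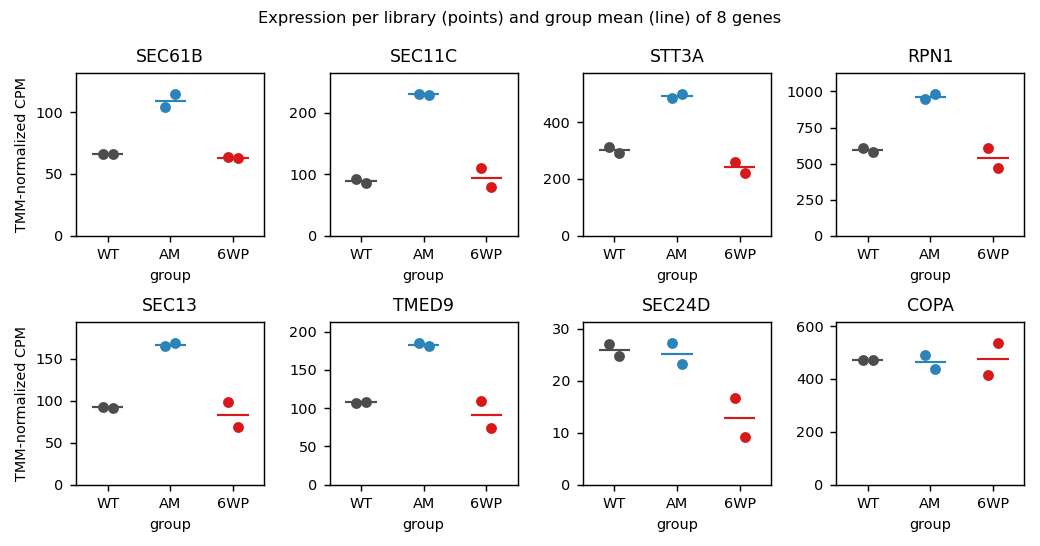
Points give the CPM of single libraries and lines the mean of 2 for 8 genes in WT, AM and 6WP cells, each axis starting at 0. The AM libraries lie above all others for SEC61B, SEC11C, STT3A, RPN1, SEC13 and TMED9, only the 6WP libraries are low for SEC24D, and the groups overlap for COPA.

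Among the 10 COPII genes, 6 (60%) were lower in 6WP than in AM cells, and 2 (20%) were higher in AM than in WT cells. Over all tested genes, 9.68% were called as lower in the first comparison and 7.74% as higher in the second (21.3% and 17.7% in either direction). Whether 2 of 10 differs from the second share was not tested. SEC13 (chr3:10293131-10321112, minus strand, GRCh38), a subunit of the outer coat that also serves in the nuclear pore, was measured at 92.6 and 91.6 CPM in WT, 164 and 168 CPM in AM and 98.5 and 68.0 CPM in 6WP cells (log2 fold change 0.85, SE 0.17, adjusted p = 0.0145 in AM against WT; log2 fold change -0.9972, SE 0.17, adjusted p = 0.00798 in 6WP against AM). Its outer coat partner SEC31A was called in 6WP against AM (log2 fold change -0.42, SE 0.11, adjusted p = 0.0334) and not in AM against WT (log2 fold change 0.28, SE 0.11, adjusted p = 0.118). SEC23B, of the inner coat, was measured at 182 and 171 CPM in WT, 254 and 259 CPM in AM and 170.4 and 125 CPM in 6WP cells, highest in AM (log2 fold change -0.80, SE 0.15, adjusted p = 0.0114 in 6WP against AM), while its paralog SEC23A was called in no comparison (log2 fold change -0.24 in 6WP against AM).

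SEC24 paralogs bind cargo in the inner coat. SEC24D (chr4:118722823-118838683, minus strand, GRCh38) was measured at 27.1 and 24.7 CPM in WT, 27.2 and 23.2 CPM in AM and 16.7 and 9.13 CPM in 6WP cells. WT and AM libraries overlapped, both 6WP libraries were below them, and the 6WP replicates differed more than in any other member (SD of log2 CPM 0.614). It was called in 6WP against AM (log2 fold change -0.96, SE 0.25, adjusted p = 0.0325). Against WT the estimate was the lowest of the 55 and missed the threshold (log2 fold change -1.01, SE 0.26, adjusted p = 0.0760), but was called with no filter on low counts, with the Wald test of DESeq2, with a replicate block and without either 6WP library. SEC24C and SEC24A were also lower in 6WP than in AM cells (log2 fold changes -0.66 and -0.51), and SEC24B was called in no comparison (log2 fold change -0.12). The GTPases that start the coat, SAR1A and SAR1B, were not called, with log2 fold changes of -0.15 and -0.38 in 6WP against AM.

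Among the 6 COPI genes, 3 (50%) were lower in 6WP than in AM cells, and 1 (16.7%) was higher in AM than in WT cells. Over all tested genes, 9.68% were called as lower in the first comparison and 7.74% as higher in the second (21.3% and 17.7% in either direction). Whether 1 of 6 differs from the second share was not tested. COPG1, the gamma subunit, was called in both, with 221 and 234 CPM in WT, 309 and 322 CPM in AM and 240.2 and 243 CPM in 6WP cells (log2 fold change 0.47, SE 0.10, adjusted p = 0.0189 in AM against WT; log2 fold change -0.39, SE 0.10, adjusted p = 0.0298 in 6WP against AM). COPB2 and ARCN1, the beta prime and delta subunits, were called in 6WP against AM (log2 fold changes -0.57 and -0.49). The largest subunit, COPA, was measured at 472 and 473 CPM in WT, 491 and 436 CPM in AM and 415 and 534 CPM in 6WP cells, with all groups overlapping and a log2 fold change of 0.04 in 6WP against AM (SE 0.14, adjusted p = 0.877, edgeR). COPE had 6WP values as far apart as 173 and 104 CPM and was not called, nor was COPB1.

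Of the 9 cargo receptors, 7 (77.8%) were lower in 6WP than in AM cells and 4 (44.4%) were higher in AM than in WT cells. The background was 21.3% and 17.7% of all tested genes called. The p24 family members TMED2, TMED9 and TMED10 cycle between ER and Golgi with both coats. TMED9 was measured at 107 and 108 CPM in WT, 185 and 182 CPM in AM and 109 and 73.5 CPM in 6WP cells (log2 fold change 0.77, SE 0.17, adjusted p = 0.0232 in AM against WT; log2 fold change -1.0024, SE 0.17, adjusted p = 0.00909 in 6WP against AM). TMED2 was measured at 895 and 842 CPM in WT, 1249 and 1196 CPM in AM and 752 and 678 CPM in 6WP cells, with the 6WP libraries below all others (log2 fold change -0.77, SE 0.11, adjusted p = 0.00549 in 6WP against AM). TMED10 was called in 6WP against AM (log2 fold change -0.71) and not in AM against WT (log2 fold change 0.43), and its 6WP libraries stood apart at 270.2 and 371 CPM. SURF4, an export receptor for soluble cargo, was measured at 257 and 258 CPM in WT, 388 and 391 CPM in AM and 227 and 201 CPM in 6WP cells. All 6WP values were below all WT values, and these were below AM (log2 fold change 0.60, SE 0.11, adjusted p = 0.0114 in AM against WT; log2 fold change -0.86, SE 0.11, adjusted p = 0.00354 in 6WP against AM).

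The KDEL receptors return ER residents by COPI. KDELR2 was measured at 523 and 494 CPM in WT, 680.3 and 691 CPM in AM and 442 and 414 CPM in 6WP cells (log2 fold change -0.68, SE 0.10, adjusted p = 0.00627 in 6WP against AM), and KDELR1 was also lower (log2 fold change -0.33, SE 0.10, adjusted p = 0.0476). KDELR3 was lowly expressed (7.86 ± 0.219 RPKM in WT, SD, n = 2) and had the most negative estimate of the 55 in AM against WT (log2 fold change -0.28, SE 0.20, adjusted p = 0.344). LMAN1 and MCFD2 form the receptor for coagulation factors. MCFD2 was lower in 6WP than in AM cells (log2 fold change -0.46, SE 0.10, adjusted p = 0.0185), and LMAN1 missed the threshold (log2 fold change -0.41, SE 0.15, adjusted p = 0.0845).

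In all, 18 members were called in no comparison, namely SEC62, SEC63, SSR2, SRP9, SRP14, SRP19, SRP68, SRP72, SPCS3, SEC23A, SEC24B, SAR1A, SAR1B, COPA, COPB1, COPE, KDELR3 and LMAN1. By level per kilobase, SSR2 was the highest of the 55 in WT cells at 621 ± 22.4 RPKM, followed by SRP9 at 382 ± 30.7, TMED2 at 341 ± 14.7 and SEC11A at 272 ± 16.1 RPKM (SD, n = 2). The WT libraries of these genes did not overlap, and SRP9 (404 and 361 RPKM) and TMED2 (352 and 331 RPKM) were closest. Some counts are uncertain because of near copies or overlaps. Pseudogenes with a member's name are annotated for 16 members, with 7 for OSTC and 5 for SRP14, exons of another gene overlap 9 members on the same strand and 30 on the opposite strand, and the strand setting of the counting is not given in the sources used here.

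Paralogs were compared by the log2 ratio of their counts within each library, over 10 pairs. The ratio of SEC11A to SEC11C was 1.72 and 1.71 in WT, 0.78 and 0.82 in AM and 1.504 and 2.15 in 6WP cells, so relatively more SEC11C was measured in AM cells (difference -0.92 in AM against WT and 1.03 in 6WP against AM). For SEC23A to SEC23B the ratio was -0.50 and -0.56 in WT, -0.9996 and -1.07 in AM and -0.65 and -0.27 in 6WP cells. The AM libraries were lowest here too, with differences of -0.51 against WT and 0.58 in 6WP against AM. For STT3A to STT3B it was -0.50 and -0.48 in WT, -0.39 and -0.27 in AM and -0.63 and -0.79 in 6WP cells, highest in AM and lowest in 6WP cells (difference -0.39 in 6WP against AM). Over the 10 pairs the differences in AM against WT ran from -0.92 to 0.71, the latter for KDELR2 to KDELR3, and SEC61A1 to SEC61A2 differed by -0.54. These differences are given as a description, as the exact permutation test (two-sided) of 2 against 2 libraries gives p = 0.333 at the least.

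**Figure D4:**
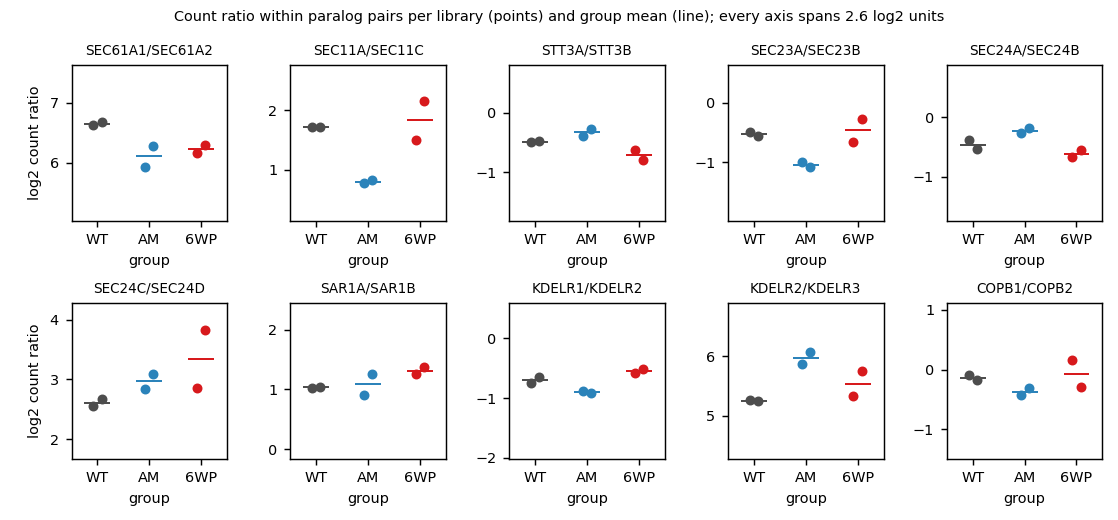
Each panel gives the log2 ratio of counts of one paralog pair (points are libraries, lines the mean of 2) in WT, AM and 6WP cells, on axes of equal span. SEC11A/SEC11C and SEC23A/SEC23B dip in the AM libraries, and SEC24C/SEC24D has widely separated 6WP libraries at 2.85 and 3.82.

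The other genes of the pathway were counted from lists by function. Of 44 further genes of translocation and vesicle transport, 9 were lower and 3 higher in 6WP against AM, 12 were higher and 4 lower in AM against WT, and 0 were called in 6WP against WT (12 at an unadjusted p under 0.05, edgeR). The shares called, 27.3% in 6WP against AM and 36.4% in AM against WT, stood beside 21.3% and 17.7% of all tested genes, and the 12 were 27.3% against 22.4% of all. Lower in 6WP than in AM cells were TMED7, a p24 protein (log2 fold change -1.02), MAGT1, an oligosaccharyltransferase subunit that works with STT3B (log2 fold change -0.92), and PREB, the exchange factor for SAR1 (log2 fold change -0.80). TMED7 and ERGIC1, a protein of the ER-Golgi intermediate compartment, were higher in AM than in WT cells (log2 fold changes 0.75 and 0.76). MIA2, which helps to load large cargo at ER exit sites, ran the other way, lower in AM than in WT cells (log2 fold change -1.03) and higher in 6WP than in AM cells (log2 fold change 0.73). Of 23 genes that build the dolichol-linked sugar tree, 11 (47.8%) were lower in 6WP against AM (median -0.40). In AM against WT, 7 (30.4%) were higher (median 0.32). The shares of all tested genes called in either direction were 21.3% and 17.7%. In 6WP against WT 0 were called, and 7 had an unadjusted p under 0.05 (edgeR), a limit that 22.4% of all tested genes passed. ALG8, a glucosyltransferase, was measured at 82.1 and 65.4 CPM in WT, 103 and 100.3 CPM in AM and 56.7 and 42.4 CPM in 6WP cells (log2 fold change -1.04, SE 0.17, adjusted p = 0.00727 in 6WP against AM), and ALG10, another glucosyltransferase, was also lower (log2 fold change -0.81). MPDU1, needed for use of dolichol-linked sugars, was called in AM against WT (log2 fold change 0.92) and in 6WP against AM (log2 fold change -0.86). DOLK, the dolichol kinase, and DPM2, a subunit of dolichol-phosphate mannose synthase, were higher in AM than in WT cells (log2 fold changes 0.58 and 0.57).

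The 17 ER luminal chaperones and oxidoreductases, set beside the members as the folding machinery downstream of the channel, had larger medians. In 6WP against AM 16 of them were lower with a median of -1.47, against -0.51 for the 55 members. In AM against WT 16 were higher with a median of 0.80, against 0.34. In 6WP against WT, where no member was called, 8 chaperones were lower with a median of -0.68. These counts were 94.1%, 94.1% and 47.1% of the 17, beside 21.3%, 17.7% and 3.00% of all tested genes called in either direction. HSPA5, the main ER chaperone, was measured at 1545 and 1534 CPM in WT, 2705 and 2874 CPM in AM and 444 and 512 CPM in 6WP cells (log2 fold change -1.69, SE 0.12, adjusted p = 0.00338 in 6WP against WT). PDIA4, a disulfide isomerase, and MANF, a secreted ER stress protein, were lower in 6WP than in AM cells (log2 fold changes -2.45 and -2.37) and than in WT cells (log2 fold changes -1.47 and -1.31). The largest rises in AM against WT were those of DNAJB11 and SDF2L1, cochaperones of HSPA5, and of CRELD2 (log2 fold changes 1.31, 1.197 and 1.16). The difference between the lists was not tested.

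**Figure D5:**
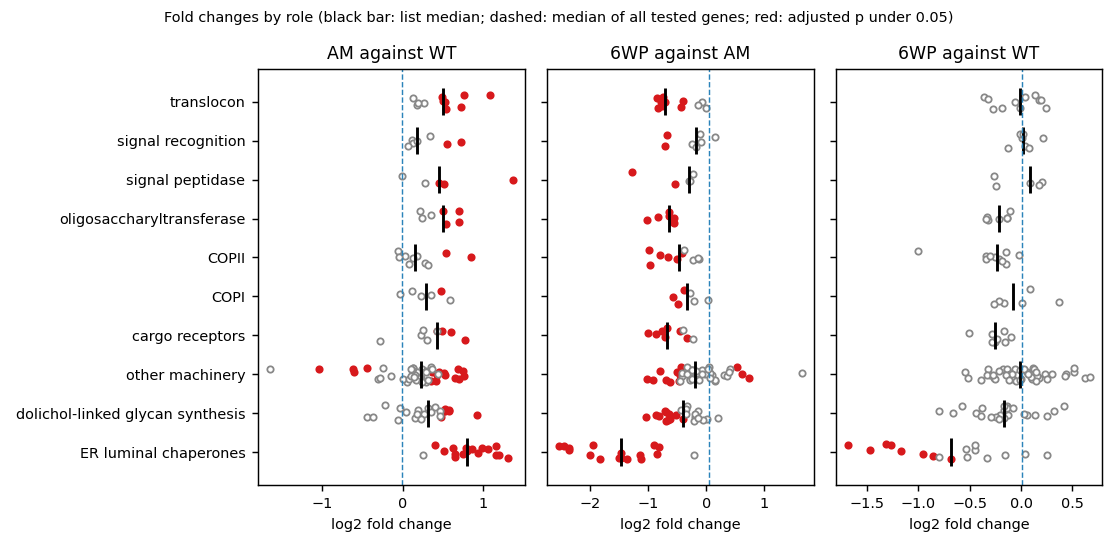
Points give log2 fold changes of single genes by role (the 7 member roles and 3 lists of other genes) in AM against WT, 6WP against AM and 6WP against WT; red marks an adjusted p below 0.05, black bars the list medians and the dashed line the median of all tested genes. Medians of the 7 roles lie right of the dashed line on the left and left of it in the middle, and the chaperones reach further, with medians of 0.80, -1.47 and -0.68.

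Factors that control secretory genes did not move as one. XBP1, which activates many translocon and transport genes, was measured at 211 and 198 CPM in WT, 273 and 307 CPM in AM and 203 and 184 CPM in 6WP cells, highest in AM (log2 fold change 0.51, SE 0.11, adjusted p = 0.0230 in AM against WT; log2 fold change -0.58, SE 0.11, adjusted p = 0.0130 in 6WP against AM). CREB3L2, a Golgi-cleaved factor linked to COPII genes, was lower in 6WP than in AM cells (log2 fold change -0.88, SE 0.16, adjusted p = 0.0114). ATF6 ran the other way, at 107 and 104 CPM in WT, 93.7 and 94.6 CPM in AM and 136 and 148 CPM in 6WP cells (log2 fold change 0.59, SE 0.10, adjusted p = 0.00920 in 6WP against AM). CREB3L1 was low, at 2.59 and 2.62 CPM in WT, 0.732 and 0.589 CPM in AM and 0.976 and 1.66 CPM in 6WP cells, and lower in AM than in WT cells (log2 fold change -1.99, SE 0.35, adjusted p = 0.0114), whereas CREB3L4 was higher (log2 fold change 0.53, SE 0.13, adjusted p = 0.0271). ATF4 and DDIT3, of the translation arm of the stress response, were higher in 6WP than in WT cells (log2 fold changes 0.80 and 1.803), and also higher in 6WP than in AM cells (log2 fold changes 0.45 and 0.66; adjusted p = 0.0273 and 0.0367, edgeR). DDIT3 was higher in AM than in WT cells (log2 fold change 1.14). Transcript levels do not show splicing of XBP1 or cleavage of ATF6 and CREB3L2.

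Promoter sequences show which members carry letters that these factors are known to bind. RefSeq promoters (GRCh38.p14) were found for 48 of the 55 members, and TRAM1, SPCS1, RPN1, STT3B, SEC24D, KDELR2 and TMED9 were not matched. On both strands of the 250 bases before each start, the core of the unfolded protein response element bound by XBP1 and ATF6 (TGACGTG, reverse complement CACGTCA) was present in 9 of the 48 (18.8%), against 2.77% of the 10384 tested genes with an entry. It was also present in 2 of 16 chaperones (12.5%, HYOU1 and DNAJC10). The 9 member sequences are shown as 30 bases of the gene's own strand, with the match in capitals.

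SEC62 (chr3:169966777-169966806, plus strand, 16 to 10 bases before the start): ccccctcctcgctcCACGTCAgagggaacc

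SSR3 (chr3:156554147-156554176, minus strand, 40 to 34 bases before the start): ctgataacagcCACGTCAgcaaggaaacta

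SSR4 (chrX:153794529-153794558, plus strand, 128 to 122 bases before the start): cagggaggggcCACGTCAgtgctgccagag

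SRP19 (chr5:112861165-112861194, plus strand, 111 to 105 bases before the start): agtcttcatgcCACGTCAgagactagagat

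SEC13 (chr3:10321237-10321266, minus strand, 143 to 137 bases before the start): ctctggtctcgCACGTCActggaggatagg

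SEC24A (chr5:134648595-134648624, plus strand, 179 to 173 bases before the start): gtgagagtcggTGACGTGgcggcgaggccg

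COPB1 (chr11:14499840-14499869, minus strand, 47 to 41 bases before the start): ccacccccttcCACGTCAgccaaggactct

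COPB2 (chr3:139389824-139389853, minus strand, 162 to 156 bases before the start): ctcagcggcacCACGTCAcggcccttagtg

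KDELR3 (chr22:38468040-38468069, plus strand, 45 to 39 bases before the start): gccgccctggcCACGTCAccgcccggccaa

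Of these 9 genes, 5 (SSR3, SSR4, SEC13, SEC24A and COPB2) were lower in 6WP than in AM cells, as were 24 of the 39 matched members without these letters. The median log2 fold changes were -0.40 and -0.49, the first for members with the element and the second for those without it. In AM against WT, 3 of 9 and 15 of 39 were higher. The 7 members without a promoter entry are outside this comparison. Of these, 6 were lower in 6WP against AM (median -0.68) and 5 were higher in AM against WT (median 0.51). Over all tested genes, 9.68% were called as lower in 6WP against AM and 7.74% as higher in AM against WT. The ER stress element (CCAAT, 9 bases of any kind, CCACG) was found in 0 of the 48 members and in 6 of 16 chaperones with an entry (HSPA5, HSP90B1, CALR, CANX, PDIA6 and CRELD2), against 0.144% of tested genes. Its second form (ATTGG, 1 base, CCACG) was found in 0 members and in HYOU1 and SDF2L1. The core that ATF4 binds in amino acid response elements (TGATG, 1 base, AA) was found in SRPRB and MCFD2, 4.17% of the 48, against 2.36% of tested genes. A match is a run of letters and not a measured binding site.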

How the data were processed

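RNA of 6 libraries from 22Rv1 cells was sequenced after TruSeq stranded preparation, per the labels. The authors deposited unnormalized whole read counts for each gene symbol and library, and replicates were not pooled. The submitters' processing notes name hg38, STAR 2.5.3a, featureCounts 1.5.3, StringTie 1.3.3 and edgeR 3.22.3. The annotation and strand setting of the counting are not given in the sources used here, and 0 columns of the table were left out.

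The counts were analysed in R 4.3.3 with edgeR 4.0.16. Genes were filtered with filterByExpr for the 3 groups, TMM factors were computed, and the 6 libraries entered 1 quasi-likelihood fit with group as its only term (common dispersion 0.0173). All tests were two-sided, with Benjamini-Hochberg adjustment over 14672 genes and a threshold of 0.05. To obtain the SE, each log2 fold change was divided by the root of its F statistic. Positions, overlaps and lengths came from GENCODE on GRCh38, and promoters from RefSeq. Every member is accounted for by role. Those given with values are all members called in any comparison and the largest estimate of each role, and some further members are given to account for their role. From the other lists, the 3 called genes of largest change in each comparison are named, and XBP1, SRPRA and the cell type markers were added after their values were seen. Some marker genes are not reported here. The members and lists were chosen with earlier results of these data known. The test was run on simulated counts.

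Alternatives covered scaling (DESeq2 size factors, upper quartile factors or library size alone), filtering (none beyond 1 count in total, or a minimum of 10 counts per library), the Wald test of DESeq2 1.42.0, a fit to the 2 groups compared alone, a replicate block, and each library left out in turn.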

Additional observations from a re-analysis of the deposited data

How the results depend on the processing

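In 6WP against AM, the count of 35 lower members was 21 in a fit to only the 2 groups compared and ranged from 0 to 41 with each library left out (0.775% to 45.8% of all genes called), and no member was called under all 6 leave-outs. The median of -0.51 moved to -0.54 with DESeq2 size factors, -0.42 with upper quartile factors, -0.48 with library size only, -0.50 with at least 10 counts in every library, -0.54 with the Wald test of DESeq2 and -0.53 with only the 2 groups, and ranged from -0.55 to -0.47 over the leave-outs. In AM against WT, the 23 higher members became 37 with only the 2 groups compared and ranged from 0 to 37 over the leave-outs (0.448% to 44.7% of all genes), and the median of 0.34 moved to 0.24 with upper quartile factors and 0.28 with library size only, with 0.31 to 0.38 over the leave-outs. In 6WP against WT the count of 0 became 1 with no filter on low counts, 2 with the Wald test and 1 with the replicate block, and ranged from 0 to 20 over the leave-outs (0% to 26.0% of all genes). The medians moved with the scaling as the median of all genes did, which went from 0.05 to 0.14 in 6WP against AM and from -0.00 to -0.09 in AM against WT with upper quartile factors. Over 55 members, 3 comparisons and these alternatives, 223 values lost their call, 97 gained one and 1990 stayed on their side of the threshold, and none of the called values changed sign. With the replicate block, 33 members were lower in 6WP against AM and 23 were higher in AM against WT, where 20.9% and 16.9% of all genes were called. In 6WP against WT, the share of all genes called was 4.37% with no filter on low counts, 8.48% with the Wald test and 2.68% with the replicate block. Same-numbered libraries deviated together by correlations of 0.02, 0.08 and -0.01 over genes, so no large shared deviation was seen. With 2 libraries per group, these values cannot tell whether same-numbered samples were cultured or prepared together. A leave-out leaves 1 group with a single library that is assumed to vary like the others. In the simulated 6WP against WT comparison, with 2 libraries per group and the same spread in every group, 9% of 1.5-fold changes were called. Recovery among the members was not tested. Smaller differences were called in the real data, as for KDELR1 in 6WP against AM (log2 fold change -0.33).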
